A study of Mus musculus with 6 samples.

Results

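The growth hormone and IGF axis of the liver was followed through 9 genes, taken by name from the deposited FPKM table: Ghr, Stat5a, Stat5b, Socs2, Cish, Igf1, Igfals, Igfbp2 and Igfbp4. All 9 were among the 14669 genes of the table. FPKM are fragments scaled to gene length and to the reads counted in the library, so levels of different genes can be set side by side. The RNA came from whole livers of wild-type male C57BL/6J mice aged 8 weeks. Each mouse had been given 25 µg of plasmid by hydrodynamic injection in 2.5 ml saline, a rapid large-volume injection that carries DNA into liver cells. The plasmid was plko-scramble, a control hairpin, or plko-shBicd2, a hairpin against the dynein adaptor Bicd2. All mice, controls included, received 15 mg/kg of the lectin concanavalin A intravenously on day 3, and livers were taken 6 h later. Concanavalin A activates T cells and causes an acute hepatitis. There were 3 scramble libraries (Sc3, Sc4 and Sc5) and 3 shBicd2 libraries (sh1, sh3 and sh6), and no untreated liver, so every level below is a level during hepatitis.

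Growth hormone from the pituitary binds its receptor on hepatocytes, and the kinase JAK2 bound to the receptor then phosphorylates the transcription factors STAT5A and STAT5B. These enter the nucleus and switch on Igf1, the hormone that carries much of the growth signal, and Igfals, which keeps IGF1 in the circulation. They also switch on Socs2 and Cish, whose proteins damp the same pathway. IGF1 travels in plasma attached to binding proteins, of which the liver makes several. Inflammation is known to blunt the liver's response to growth hormone.

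The targeted gene was reported first as a check of the labels. Bicd2 stood at 4.14, 3.43 and 3.13 FPKM in scramble against 3.61 (sh1), 2.57 (sh3) and 2.97 FPKM (sh6). The groups overlapped, and the log2 fold change of -0.17 ± 0.16 (SE) did not pass (limma, adjusted p = 0.624). It was -0.085 without Sc3, -0.087 without sh3 and -0.27 without sh1. A lower Bicd2 level was thus not detectable, and "shBicd2" below means the libraries labelled so. Recovered depths ran from 16.03M to 18.93M reads per library. The shBicd2 libraries spread more widely than the scramble libraries: correlations across genes, which are not independent replicates, were 0.981 to 0.988 among scramble and 0.905 to 0.963 among shBicd2 libraries, with sh1 the farthest apart. Hepatocyte markers were present as the tissue label states, all 12 of 12, led by Alb at 15373 to 26213 FPKM. Separate animals per library are not stated in the labels, so p-values measure only how far these samples spread, and that spread may be technical.

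None of the 9 axis genes passed an adjusted p of 0.05 in limma, where 0 of 10152 tested genes passed (0%). All 9 had passed the filter of a mean of at least 1 FPKM. At an unadjusted p below 0.05 there were 2 axis genes higher in shBicd2, Igfbp2 and Igfbp4, where 2.97% of all tested genes were higher at that p. There was 1 lower, Stat5a, where 12.7% of all tested genes were lower. Limma's voom on recovered reads also called 0 of the 9, with 3 at an unadjusted p below 0.05. Either direction at that p took in 15.7% of all tested genes. Their split moved with scaling: 302 were higher and 1291 lower on FPKM, 633 higher and 874 lower with size factors, 693 higher and 812 lower after quantile normalization, and 181 higher and 1768 lower as TPM. The median log2 fold change was 0.07 over the 9 genes, 5 of them positive, and -0.06 over all tested genes.

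Ranked by mean FPKM over the 6 libraries, Igfbp4 was the most abundant at 229 and was followed by Igfbp2 at 92.0 and Igf1 at 52.7. Below them came Ghr at 25.4, Igfals at 10.9, Stat5b at 8.63, Cish at 4.80, Stat5a at 3.66 and Socs2 at 2.63 FPKM. Every library placed Igfbp4 above Igfbp2, and Igf1 above Ghr, with no overlap between the ranges of those neighbours. The ranges of all other neighbours in that order overlapped. The plot of levels by library shows these values.

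**Figure D1:**
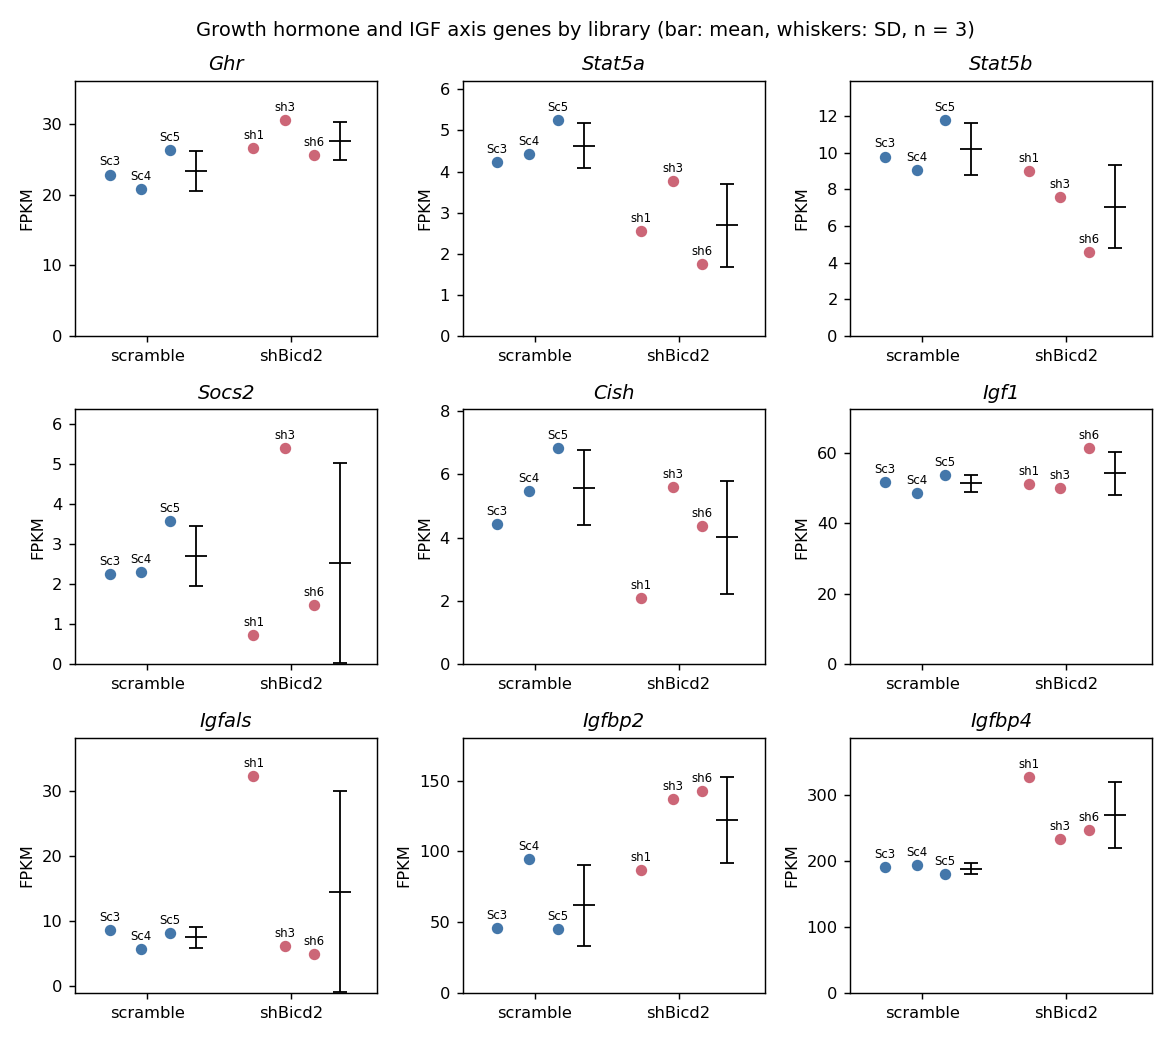
FPKM (y axis) of the 9 axis genes in each scramble (blue) and shBicd2 (red) library, with the group mean and SD (n = 3) beside the points. The shBicd2 points all lie above the scramble points for Igfbp4 and below them for Stat5a and Stat5b, while sh1 alone reaches 32.3 FPKM for Igfals.

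At the top of the pathway, Ghr, the growth hormone receptor (GRCm38 chromosome 15, 3317760 to 3583492, minus strand), lay within a narrow range. In the order Sc3, Sc4 and Sc5 it measured 22.8, 20.8 and 26.4 FPKM in scramble against 26.5 (sh1), 30.5 (sh3) and 25.5 FPKM (sh6). The shBicd2 libraries were the 3 highest except that Sc5 exceeded sh6, so the groups overlapped. The means were 23.3 ± 2.80 and 27.5 ± 2.66 FPKM (SD, n = 3), and the log2 fold change of 0.23 ± 0.16 (SE) did not pass (adjusted p = 0.515). Its 95% confidence interval ran from -0.14 to 0.61. Between 3379 and 4595 reads stood behind each value.

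The transcription factors lay lower in the shBicd2 libraries. Stat5a (chromosome 11, 100859351 to 100885169, plus strand) measured 4.22, 4.42 and 5.26 FPKM in scramble against 2.56 (sh1), 3.76 (sh3) and 1.75 FPKM (sh6). All shBicd2 values were below all scramble values, with sh6 the lowest. The means of 4.63 ± 0.548 and 2.69 ± 1.014 FPKM (SD, n = 3) gave a log2 fold change of -0.64 ± 0.22 (SE; adjusted p = 0.229). Stat5b (chromosome 11, 100780731 to 100850724, minus strand) was the more abundant of the pair, at 9.79, 9.04 and 11.8 FPKM in scramble against 9.01 (sh1), 7.61 (sh3) and 4.56 FPKM (sh6). Its groups were separated only by the gap between sh1 and Sc4, and sh6 was again the lowest. Its log2 fold change was -0.51 ± 0.24 (SE; adjusted p = 0.358).

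Among all tested genes, 18.7% had shBicd2 libraries wholly below the scramble libraries and 5.7% wholly above, 24.4% in all. Those shares were 11.6% below and 11.8% above with size factors, 11% below and 12.6% above after quantile normalization, and 24.8% below and 3.56% above as TPM. With size factors or quantile normalization the groups overlapped for both STAT5 genes, and the log2 fold changes were -0.57 and -0.52 for Stat5a and -0.43 and -0.42 for Stat5b. Library sh6 carried much of the size for Stat5b, whose log2 fold change was -0.26 without it. Limma's array weights were 4.67 for sh6, 0.28 for sh3 and 0.18 for sh1, so the weighted shBicd2 level rested mostly on sh6. With these weights both genes were past the threshold, as were 26.7% of all tested genes. The log2 fold changes were -0.94 (adjusted p = 0.00291) for Stat5a and -0.92 (adjusted p = 0.00413) for Stat5b.

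The STAT5 genes are neighbours that lie head to head with 8626 bases between them. Their transcripts are alike in part: 8.21% of the 50-base stretches of Stat5a also occur in Stat5b, and 11% of those of Stat5b in Stat5a. How reads from such stretches were assigned is not given in the sources used here, so the split between the pair is uncertain to that extent. The last 72 of the 7133 exon bases of Stat5a overlap Stat3 on the other strand. The ratio of Stat5b to Stat5a FPKM was 2.05 to 2.32 in scramble and 3.52, 2.02 and 2.61 in sh1, sh3 and sh6.

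The feedback genes varied more between shBicd2 libraries than between groups. Socs2, a SOCS box protein that turns off the growth hormone receptor (chromosome 10, 95385362 to 95417180, minus strand), was at 2.26, 2.31 and 3.57 FPKM in scramble against 0.724 (sh1), 5.39 (sh3) and 1.49 FPKM (sh6). The lowest and the highest of the 6 values were both shBicd2 libraries, 7.45-fold apart, and rested on 126 and 854 reads. The group means of 2.71 ± 0.744 and 2.54 ± 2.50 FPKM (SD, n = 3) did not differ beyond that spread (log2 fold change -0.28 ± 0.45 SE; adjusted p = 0.793).

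Cish, a STAT5-induced inhibitor that competes at the receptor (chromosome 9, 107296026 to 107302784, plus strand), had the same libraries at the low end. It was at 4.45, 5.47 and 6.82 FPKM in scramble against 2.09 (sh1), 5.60 (sh3) and 4.36 FPKM (sh6). Library sh1 was the lowest, followed by sh6, while sh3 lay inside the scramble range. The log2 fold change was -0.45 ± 0.29 (SE; adjusted p = 0.498), and -0.13 without sh1. From low to high the libraries ran sh1, sh6, Sc3 and Sc4 in both Socs2 and Cish, and the order of the last pair, Sc5 and sh3, was the reverse. Antisense and pseudogene exons on the other strand cover 479 and 261 of the 6419 exon bases of Cish, and the strand setting of the counting is not given in the sources used here.

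Cish and Igfals are the axis genes whose RefSeq promoter windows (GRCm38.p6, 250 bases before to 50 after a start) hold the STAT5 motif TTCNNNGAA. Every site found in the windows searched is shown, whatever the level of the gene. The motif reads alike on both strands. Each line gives 30 bases, 5′ to 3′ on the plus strand, with the motif matches in capitals.
Cish, chr9:107296654-107296683: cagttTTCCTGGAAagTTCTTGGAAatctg
Igfals, chr17:24877598-24877627: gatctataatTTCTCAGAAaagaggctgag
Igfals, chr17:24878163-24878192: ctgccaggtgTTCCTAGAAgaggccctggg
The Cish window held 2 matches, at bases 1 to 9 and 12 to 20 from its RefSeq start, in what GENCODE M21 annotates as 5′ untranslated exon. The Igfals matches lay at bases -236 to -228 and -58 to -50 from 2 of its 3 annotated starts, outside its GENCODE exons. A match occurred in 8.3% of all 32851 windows, and 0.457% held 2 or more. Among the 14371 windows of genes in the FPKM table, these shares were 7.04% and 0.404%. Windows were given for 8 of the 9 genes (14 windows), and 3 of the 14 held a match. No window was given for Socs2, so it was not searched. A match describes the letters only and is no measure of STAT5 binding.

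Igf1 itself, the growth factor at the output of the axis (chromosome 10, 87858265 to 87937042, plus strand), had the smallest spread of the 9 genes. It was at 51.7, 48.6 and 53.5 FPKM in scramble against 51.2 (sh1), 50.01 (sh3) and 61.2 FPKM (sh6), from 8230 to 11470 reads. Only sh6 lay outside the scramble range, and the highest value was 1.26-fold the lowest. The means were 51.3 ± 2.50 and 54.1 ± 6.14 FPKM (SD, n = 3). The log2 fold change of 0.07 ± 0.15 (SE) did not pass (adjusted p = 0.846), its 95% confidence interval ran from -0.29 to 0.43, and its sign turned on the TPM scale (-0.02). In sh1, where Socs2 and Cish were lowest, Igf1 was at its scramble level.

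Igfals, the acid-labile subunit that locks IGF1 into a long-lived plasma complex (chromosome 17, 24865997 to 24882010, plus strand), differed from the rest through a single library. It was at 8.63, 5.65 and 8.04 FPKM in scramble against 32.3 (sh1), 6.12 (sh3) and 4.94 FPKM (sh6). The sh1 value was 3.75-fold the next highest, in Sc3, while sh3 lay inside the scramble range and sh6 below it. The log2 fold change was 0.43 ± 0.61 (SE; adjusted p = 0.769) and turned to -0.36 without sh1. Igf1 stood at 1.58 times Igfals in sh1 and at 6.00 to 12.4 times Igfals in the other 5 libraries.

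The 2 binding protein genes among the 9 had higher means in shBicd2, without passing the test. Igfbp4, a carrier that restrains IGF action (chromosome 11, 99041244 to 99054392, plus strand), measured 191, 194 and 180 FPKM in scramble against 327 (sh1), 234 (sh3) and 247 FPKM (sh6). The scramble values were tightly grouped, and all shBicd2 values lay above them, also on the TPM scale, with size factors and with quantile normalization, where 3.56%, 11.8% and 12.6% of all tested genes lay wholly above. The means of 188 ± 7.64 and 269 ± 50.6 FPKM (SD, n = 3) gave a 1.43-fold difference and a log2 fold change of 0.50 ± 0.18 (SE; adjusted p = 0.247). With sh1 left out it was 0.35. With array weights it was past the threshold (0.39, adjusted p = 0.0197), as were 26.7% of all tested genes.

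Igfbp2, a carrier made by hepatocytes (chromosome 1, 72824503 to 72852474, plus strand), had the largest difference of the 9. It was at 45.7, 94.6 and 45.2 FPKM in scramble against 87.1 (sh1), 137 (sh3) and 143 FPKM (sh6). Libraries sh3 and sh6 exceeded every scramble library, while sh1 lay below Sc4. The means of 61.8 ± 28.4 and 122 ± 30.5 FPKM (SD, n = 3) were 1.98-fold apart, with a log2 fold change of 1.03 ± 0.34 (SE; adjusted p = 0.226) and a 95% confidence interval from 0.23 to 1.82. It was past the threshold with array weights alone (1.36, adjusted p = 0.00647), a setting in which 26.7% of all tested genes passed. In whole liver, fewer cells of a type and less RNA per cell cannot be told apart, and the summed level of the hepatocyte markers was 29473 to 35912 FPKM in scramble and 37027 to 42556 FPKM in shBicd2. Alb makes up much of that sum. Total FPKM per library was also higher in shBicd2, at 392184 to 405732 against 365545 to 377559 in scramble. The marker sums were not compared on other scales. Of the 12 markers, 4 had a positive and 8 a negative log2 fold change (median -0.03), with none past the threshold. Wholly above scramble were 3 of them and wholly below 0, beside 5.7% and 18.7% of all tested genes. These were Ttr (1.42-fold), Ahsg (1.35-fold) and Apoa1 (1.49-fold), named after their values were seen. The same 3 were higher at an unadjusted p below 0.05 in limma, beside 2.97% of all tested genes. The part of hepatocytes in the higher Igfbp2 and Igfbp4 levels was not tested.

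Of the listed markers of other liver cells, Krt19 was not analysed here. Stellate cell markers, led by Dcn and Ecm1, summed to 61.7 to 74.9 FPKM in scramble and 36.9 to 54.4 FPKM in shBicd2. Endothelial markers, led by Lyve1 and Cdh5, summed to 31.9 to 40.8 and 25.0 to 38.4 FPKM, and Kupffer cell markers, led by C1qa and C1qb, to 108 to 147 and 73.8 to 164 FPKM. Monocyte and neutrophil markers, led by S100a9 and S100a8, summed to 360 to 489 and 147 to 418 FPKM. T and NK cell markers summed to 7.001 to 10.6 and 6.91 to 8.81 FPKM, and cholangiocyte markers to 41.5 to 67.2 and 29.99 to 135 FPKM. Among these 6 lists, only the summed stellate levels did not overlap between groups, and they were lower in shBicd2. That was on FPKM as deposited, where 18.7% of all tested genes lay wholly below. The sums were not compared on other scales. Of the 8 monocyte and neutrophil markers, 8 had a negative log2 fold change, as did 5944 of 10152 tested genes. None of the 8 passed. For 3 of them (Ly6g, Itgam and Csf3r, named after their values were seen) all shBicd2 libraries lay below scramble. That too was on FPKM as deposited, beside 18.7% of all tested genes, and other scales were not compared. Library sh6 was the lowest for 8 of the 8, beside 11.3% of all tested genes, and was also the lowest for Stat5a, Stat5b and Jak2. The part of these cells in the levels of the axis genes was not tested.

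Of the other IGF binding proteins, Igfbp1 and Igfbp3 are given by library. Igfbp1, a binding protein that responds quickly to stress and to low insulin (chromosome 11, 7197782 to 7202546), was at 634, 462 and 1214 FPKM in scramble against 9.41 (sh1), 622 (sh3) and 120 FPKM (sh6). It was the most abundant carrier transcript in the scramble livers and in sh3, but in sh1 it was far below every other library, and the highest value was 129-fold the lowest. Its log2 fold change of -2.94 ± 1.32 (SE) did not pass (adjusted p = 0.345). It was -1.37 without sh1, and it passed with array weights (-2.49, adjusted p = 0.00938), as did 26.7% of all tested genes. Igfbp3, the main plasma carrier and the partner of Igfals, was at 8.87, 5.31 and 10.2 FPKM in scramble against 0.542 (sh1), 4.92 (sh3) and 4.73 FPKM (sh6), so sh1 was low here as well (log2 fold change -1.25 ± 0.53 SE; adjusted p = 0.316). Without sh1 it was -0.61. Igfbp1 and Igfbp3 are neighbours, 3539 bases apart.

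Summed over Igfbp1 to Igfbp7, the carrier transcripts reached 795 to 1490 FPKM in scramble against 461 (sh1), 1033 (sh3) and 543 FPKM (sh6). Igfbp1 made up 58.1% to 81.5% of that sum in scramble, 60.3% in sh3, 22.0% in sh6 and 2.04% in sh1. Igfbp4 made up 12.1% to 24.5% in scramble and 70.9%, 22.6% and 45.5% in sh1, sh3 and sh6. Library sh3 thus had a carrier make-up inside the scramble range for Igfbp1 and Igfbp4, while sh1 and sh6 did not.

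**Figure D2:**
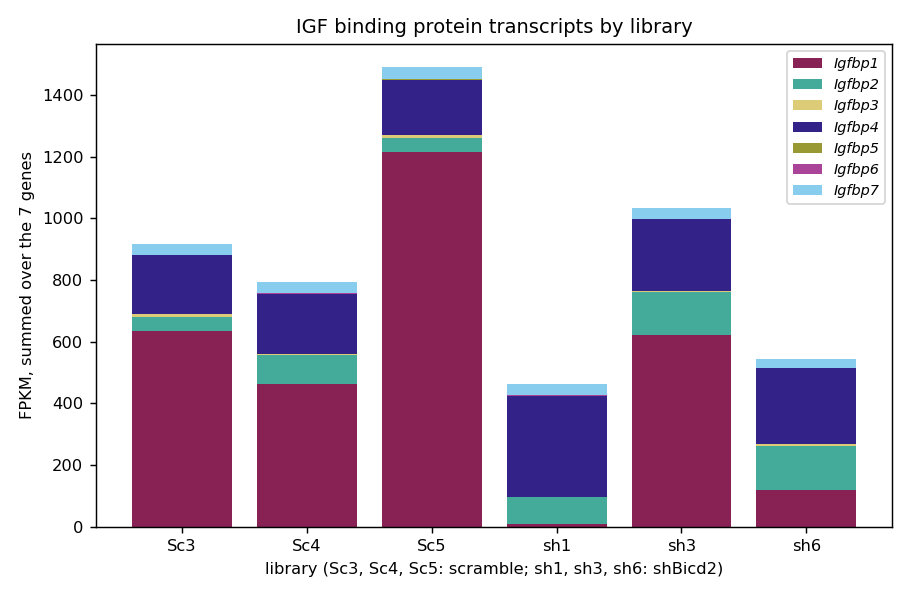
Stacked FPKM (y axis) of Igfbp1 to Igfbp7 in each library (x axis), a colour for each gene. Igfbp1 fills most of the bar in Sc3, Sc4, Sc5 and sh3, is 22.0% of it in sh6 and 2.04% in sh1, where Igfbp4 makes up 70.9%.

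The rest of the pathway was read from a list of 32 further genes, of which 28 were in the table and 20 passed the filter. None passed an adjusted p of 0.05 in limma. At an unadjusted p below 0.05 there were 5 lower and 0 higher, beside 12.7% and 2.97% of all tested genes, and voom called none past the adjusted threshold either. The median log2 fold change of the 20 was -0.30, with 15 negative, against -0.06 over all tested genes. The plot of fold changes shows that the intervals of Igfbp1, Irs2 (an insulin receptor substrate named here after its values were seen) and Igfals were the widest.

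**Figure D3:**
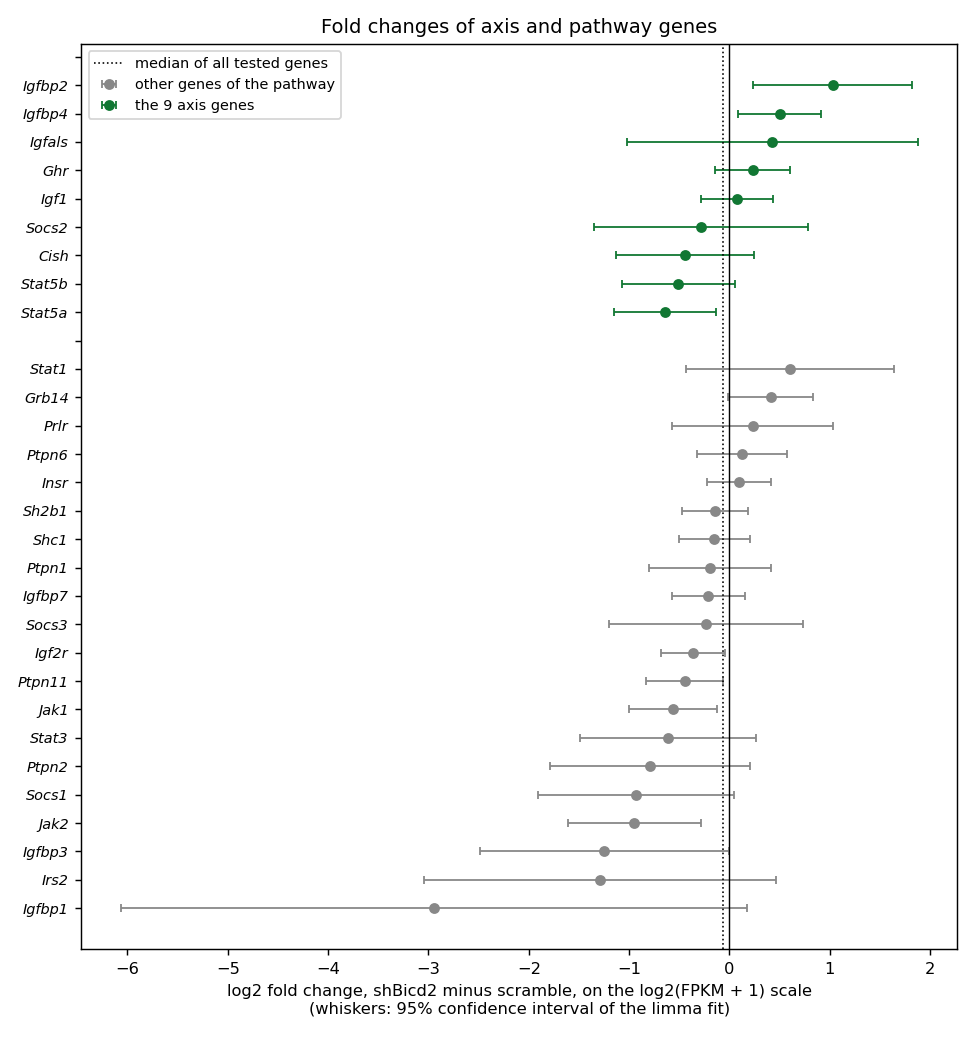
Log2 fold change of shBicd2 against scramble (x axis, log2(FPKM + 1) scale) with the 95% confidence interval of the limma fit, for the 9 axis genes (green) and 20 other pathway genes (grey). The dotted line is the median of all tested genes at -0.06, and Igfbp1 at -2.94 is the lowest point.

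Jak2, the kinase bound to the growth hormone receptor, had the smallest p of these. It was at 8.98, 11.3 and 10.7 FPKM in scramble against 4.32 (sh1), 8.02 (sh3) and 3.19 FPKM (sh6). All shBicd2 values were below the scramble values, with sh6 lowest as for Stat5a and Stat5b, although the groups overlapped with size factors or quantile normalization. The means were 10.3 ± 1.22 and 5.18 ± 2.52 FPKM (SD, n = 3), and the log2 fold change was -0.95 ± 0.28 (SE; adjusted p = 0.204). It passed without sh3, as did 2.85% of all tested genes (-1.26, adjusted p = 0.0347). With array weights it also passed (-1.30, adjusted p = 0.00228), as did 26.7% of all tested genes.

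Jak1, a related kinase used by cytokine receptors, was at 22.9 to 26.5 FPKM in scramble against 14.0 (sh1), 20.7 (sh3) and 14.5 FPKM (sh6) (log2 fold change -0.56 ± 0.19 SE; adjusted p = 0.229). Ptpn11, a phosphatase that acts as an adaptor in growth factor signalling, was at 10.1 to 13.1 and 7.03 to 9.24 FPKM (adjusted p = 0.263). Igf2r, the receptor that clears IGF2, was at 4.34 to 5.47 and 3.48 to 3.92 FPKM (adjusted p = 0.271). The groups of Ptpn11 and Igf2r also stayed apart on the TPM scale, with size factors and with quantile normalization, where 24.8%, 11.6% and 11% of all tested genes lay wholly below. Igf1r, the IGF1 receptor, was at 0.405, 0.349 and 0.505 FPKM in scramble against 0.186 (sh1), 0.233 (sh3) and 0.126 FPKM (sh6). Its groups did not overlap on FPKM as deposited, where 18.7% of all tested genes lay wholly below, and other scales were not compared. Igf1r rested on 40 to 136 reads, lay below the filter and was outside the fit (exact two-sided permutation p = 0.1, the smallest that 3 against 3 can give).

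The cytokine-induced members of the SOCS family were read beside Socs2 and Cish. Socs3, which blocks STAT3 and also growth hormone signalling, was at 45.6, 45.7 and 53.2 FPKM in scramble against 21.0 (sh1), 74.7 (sh3) and 42.1 FPKM (sh6) (log2 fold change -0.24 ± 0.41 SE; adjusted p = 0.807). Its libraries had the same order as those of Socs2, from sh1 at the bottom to sh3 at the top. Socs1, an inhibitor of interferon signalling, was at 22.3, 34.2 and 18.4 FPKM in scramble against 6.23 (sh1), 20.6 (sh3) and 13.7 FPKM (sh6) (log2 fold change -0.93 ± 0.41 SE; adjusted p = 0.338), and its log2 fold change was -0.50 without sh1. Socs3 was thus higher than Socs2 in every library, by level per length.

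Liver genes whose male pattern depends on pulsatile growth hormone and STAT5B were read from a list of 15, of which 14 were tested. None passed in limma, and 9 of the 14 were negative (5944 of 10152 among all tested genes). The 5 positive ones were Cyp2d9, Cyp2u1, Selenbp2, Mup20 and Susd4. The median log2 fold change of the 14 was -0.46, against -0.06 over all tested genes. At an unadjusted p below 0.05 there was 1 lower, beside 12.7% of all tested genes, so the count is no larger than the background. That gene was Hsd3b5, a steroid-metabolising enzyme, at 15.6, 11.8 and 17.8 FPKM in scramble against 5.27 (sh1), 11.97 (sh3) and 5.22 FPKM (sh6) (log2 fold change -0.99 ± 0.32 SE; adjusted p = 0.219). It passed without sh3 (-1.35, adjusted p = 0.0363) and with array weights (-1.31, adjusted p = 0.00242). Of all tested genes, 2.85% and 26.7% passed in those settings. Ugt2b38, a glucuronosyltransferase with close paralogs whose reads are uncertain, was at 15.6 to 20.2 FPKM in scramble against 2.98 (sh1), 13.7 (sh3) and 14.1 FPKM (sh6). Slco1a1, an organic anion transporter, was at 45.2 to 50.5 FPKM in scramble against 14.7 (sh1), 49.96 (sh3) and 30.05 FPKM (sh6). C6, a complement component, was at 82.6 to 113 FPKM in scramble against 33.99 (sh1), 67.3 (sh3) and 101 FPKM (sh6). The log2 fold changes of Ugt2b38, Slco1a1 and C6 were -0.98, -0.77 and -0.69. Without sh1 they were -0.34, -0.32 and -0.27.

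Library sh1 was the lowest of the 6 for 11 of these 14 genes, and for 28.8% of all tested genes, of which it was the highest library for 34.1%. The plot of levels relative to scramble shows this column beside the signalling genes. In that library Igf1 lay inside the scramble range, while Cyp7b1, Elovl3 and Cyp4a12b, named here after their values were seen, were at 54.8, 2.61 and 3.73 FPKM against lowest scramble values of 255, 11.6 and 15.8 FPKM. Elovl3 elongates fatty acids, and the others are cytochrome P450 enzymes.

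**Figure D4:**
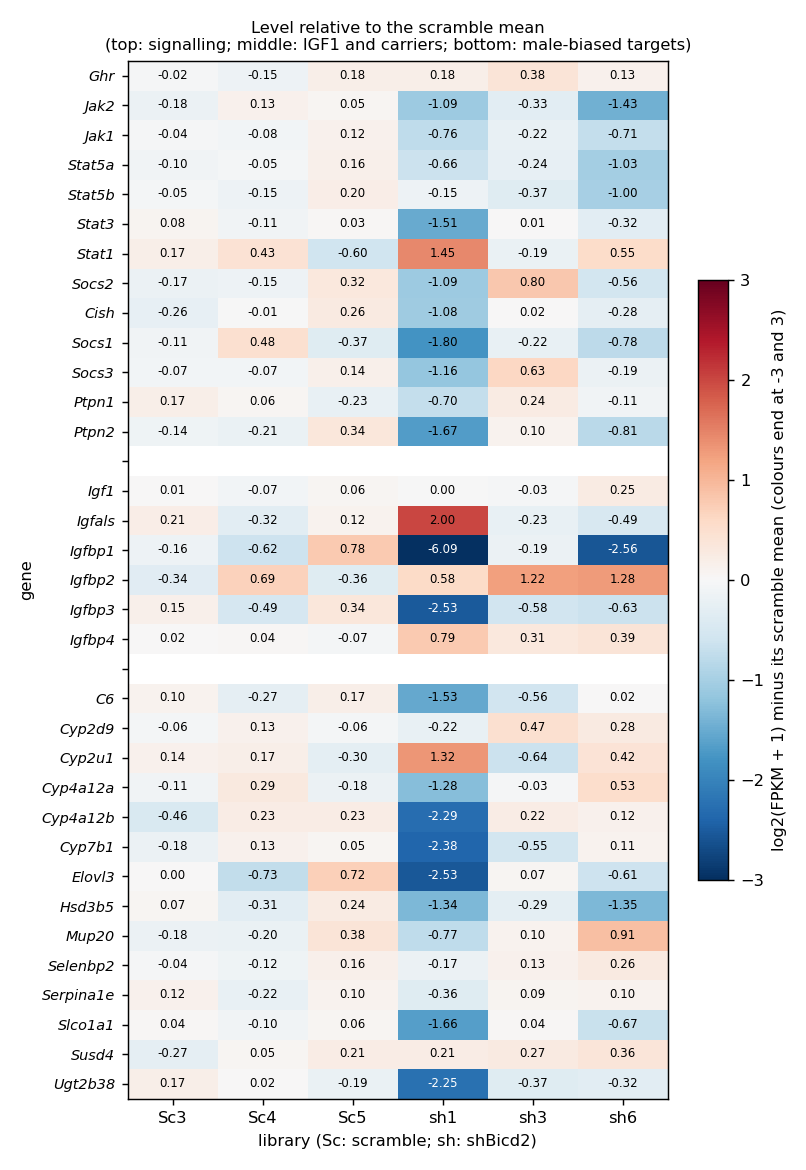
Colour and printed value give log2(FPKM + 1) minus its scramble mean for each gene (rows) and library (columns), for signalling genes, IGF1 and carriers, and male-biased target genes. Column sh1 is the lowest for 11 of the 14 target genes, while Igf1 stays near 0 in it and Igfals is far above 0.

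Female-biased growth hormone targets were mostly not analysed here: of 17 listed, 7 were in the table and 3 passed the filter. Trim24, a transcriptional cofactor, was at 2.97 to 3.62 FPKM in scramble against 5.99 (sh1), 3.92 (sh3) and 4.70 FPKM (sh6) (log2 fold change 0.46 ± 0.17 SE; adjusted p = 0.263). Fmo2, a monooxygenase, was at 1.36 to 1.64 and 0.783 to 1.24 FPKM (adjusted p = 0.275), and Cyp17a1, a steroid hydroxylase, at 12.3 to 18.1 and 7.17 to 21.0 FPKM (adjusted p = 0.980).

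Among 9 transcription factors that work with or against STAT5 in liver, 0 passed in limma. At an unadjusted p below 0.05, 2 were lower, beside 12.7% of all tested genes. Nr3c1, the glucocorticoid receptor, which pairs with STAT5 on hepatic growth genes, was at 11.3 to 15.9 FPKM in scramble against 8.39 (sh1), 10.7 (sh3) and 7.71 FPKM (sh6) (log2 fold change -0.61 ± 0.19 SE; adjusted p = 0.217). Bcl6, a repressor that opposes STAT5 at shared sites, was at 6.18, 5.98 and 9.93 FPKM in scramble against 2.08 (sh1), 6.22 (sh3) and 2.72 FPKM (sh6) (log2 fold change -0.91 ± 0.34 SE; adjusted p = 0.268). Bcl6 passed without sh3 (-1.27, adjusted p = 0.0483) and with array weights (-1.03, adjusted p = 0.00695). Of all tested genes, 2.85% and 26.7% passed in those settings. Cebpb was at 243 to 320 and 136 to 283 FPKM (adjusted p = 0.409), and Onecut1 at 1.25 to 1.95 and 1.54 to 2.45 FPKM (adjusted p = 0.570). Of the lipid genes that growth hormone holds down, Pparg was at 2.10 to 2.98 and 1.24 to 1.98 FPKM (adjusted p = 0.229) and the fatty acid transporter Cd36 at 4.46 to 5.20 and 3.47 to 6.203 FPKM (adjusted p = 0.9003).

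The genes whose pattern over the 6 libraries was most like that of Igf1, by Pearson's r of log2(FPKM + 1), were Mrps30 (r = 0.983), Ube2v2 (r = 0.971) and Rpl3 (r = 0.960). Unnamed gene models were left out of this ranking, and of the other tested genes 12 exceeded r = 0.9. Rpl3 ranged from 71.4 to 92.8 FPKM, a narrow range. Those most like Cish were Carmil1 (r = 0.990), Impdh2 (r = 0.985) and Tm4sf20 (r = 0.983), and 276 genes exceeded r = 0.9, again without unnamed gene models. Tm4sf20 was at 3.76, 4.62 and 5.96 FPKM in scramble against 0.254 (sh1), 4.83 (sh3) and 2.49 FPKM (sh6). These values share libraries and describe likeness over 6 points.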

How the data were processed

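Per the labels' protocols, total liver RNA (Trizol) went into TruSeq libraries for Illumina NovaSeq sequencing. The submitters' processing notes name HISAT2 2.0.5, featureCounts 1.5.0-p3 and mm10; the annotation, strand setting and treatment of multi-mapping reads are not given in the sources used. The authors deposited FPKM in 1 column per library; all 14669 rows are above 0 in all 6 libraries, and 0 columns belong to other samples.

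Column names give the group but not the labelled replicate. FPKM were tested as log2(FPKM + 1) for the 10152 genes averaging 1 FPKM or more, with limma 3.58.1 in R 4.3.3 (eBayes with trend), two-sided, adjusted by Benjamini-Hochberg over all tested genes; this scale understates changes of low genes. Fold changes are shBicd2 minus scramble. Read depth was recovered from whole-read steps with GENCODE M21 exon lengths (14339 genes matched; 97.8% to 98.0% of values under 50 reads lay within 0.02 of a whole read). The limma fit alone was tested on simulated data, in which both groups had the same spread. Figures were drawn with matplotlib 3.10.9.

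The 9 genes and the lists were chosen with earlier results of these data known. The naming rule took the 9 genes, Bicd2, up to 4 genes of smallest p from each further list, a fixed set (Igf1r, Jak2, Igfbp1, Igfbp3, Socs1, Socs3), the 2 highest markers of a cell type where given, and the 3 genes most like Igf1 and Cish. Sequences are from RefSeq, GRCm38.p6. Alternatives were other pseudocounts, filters, scalings, eBayes settings, array weights, voom and leaving out each library.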

Additional observations from a re-analysis of the deposited data

How the results depend on the processing

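Over 17 alternatives, no gene passed an adjusted p of 0.05 except with array weights (2709 genes, 4 of the 9 axis genes and 18 genes of the further lists) and without sh3 (289 genes, 0 axis genes and 3 genes of the further lists). Leaving out each library in turn gave 0 to 289 genes, 0 axis genes and 0 to 3 genes of the further lists, with both upper values from leaving out sh3. Array weights gave 1602 genes higher and 2584 lower at an unadjusted p below 0.05, and leaving out sh3 gave 961 and 1540. The weights were 4.67 for sh6, 0.28 for sh3 and 0.18 for sh1, so the weighted shBicd2 level rested mostly on sh6. The cause of these counts was not tested. Of the axis genes, Ghr (0.14 to 0.32), Igfbp2 (0.85 to 1.37), Igfbp4 (0.35 to 0.59), Stat5a (-0.94 to -0.45), Stat5b (-0.92 to -0.26) and Cish (-0.68 to -0.13) kept their sign in each alternative that tested them. Signs turned for Igf1 on the TPM scale (-0.022), for Igfals with array weights (-0.46), for Cd36 with size factors (0.014) and quantile normalization (0.061), and for Cyp17a1 on the TPM scale (-0.068). Leaving out each library in turn took Igf1 from -0.018 (without sh6) to 0.12, Igfals from -0.36 (without sh1) to 0.89, Socs2 from -0.82 to 0.12 (without sh1), Socs3 from -0.67 to 0.22 (without sh1), Cd36 from -0.24 to 0.11 (without sh6) and Cyp17a1 from -0.22 (without sh6) to 0.49. None of these was past the threshold. The median over the axis genes ran from -0.20 with array weights to 0.33 with a mean of at least 5 FPKM, where 6 of the 9 were tested. Axis genes at an unadjusted p below 0.05 numbered 0 without Sc5 and 5 with array weights. Socs2 rests on as few as 126 reads, which limits its precision. No paired analysis was possible because the columns carry no labelled replicate number.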
